A study of Mus musculus with 6 samples.

Results

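The nuclear genes of oxidative phosphorylation described here are 31 protein-coding genes, chosen by name as subunits of the 5 complexes of the mitochondrial inner membrane, with the electron carrier Cycs. The Ensembl identifiers of the deposited tables were matched to the 31 symbols through GENCODE M21 on the GRCm38 build, which gave 32 of the 55487 rows. The additional row is a second identifier of Atp5o on chromosome 16 from 91684398 to 91926982, which had 0 reads in all 6 libraries. All 31 symbols were among the 14140 genes that passed the filter on low counts, and they lie on 17 chromosomes. By complex they are 10 genes of complex I, 4 of complex II, 4 of complex III, 8 of complex IV, 4 of complex V and Cycs. Ndufa4 was named as a subunit of complex I and is now assigned to complex IV, where it is counted here.

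The data are 6 rRNA-depleted total RNA libraries of macrophages sorted from Lewis lung carcinoma, a transplantable mouse lung cancer line. The tumours grew under the skin of C57BL/6 mice and were collected on days 15 to 17. According to the labels, sorted cells carried CD11b and F4/80, lacked Ly6C and Ly-6G, and were split into high and low by their surface MHC class II. Each label has 3 libraries, and each library has a batch number from 1 to 3 that equals its replicate number. No genotype, treatment or age is given, and all 6 libraries share the same tumour and mouse strain. Whether replicates are separate mice or pools is not stated, so p-values cover only the spread among the libraries at hand, technical or not. What the labels call a batch is not described further.

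Transcripts of MHC class II presentation went against the labels. The summed CPM (deposited counts scaled to TMM-adjusted library sizes) of 5 such genes (the class II chains H2-Aa, H2-Ab1 and H2-Eb1, the invariant chain Cd74 and the transactivator Ciita) was 61.2 to 68.5 in the libraries labelled high and 4440 to 8896 in those labelled low, and all 5 were called lower in the labelled high libraries. The groups are therefore named by their labels, and each direction is that of the libraries as labelled. Macrophage markers summed to 10143 to 12599 CPM in labelled high libraries and to 7120 to 14154 CPM in labelled low libraries, with 0 of 10 called. By mean the largest of them was Lyz2, at 6456 CPM in labelled high and 3384 CPM in labelled low libraries. Log2 fold changes, labelled high over labelled low, were above 0 for 2 of the 10, Lyz2 among them, and below 0 for 8, with a median of -0.53. With the GC offset described below, Lyz2 was called by edgeR, at 0.86 and an adjusted p of 0.0201. Dendritic cell markers summed to 47.2 to 89.96 and 260.5 to 397 CPM, and 3 of the 6 tested (Itgax, Flt3 and Ccr7) were called lower in the labelled high libraries. Most of these sums was Itgax, at 50.5, 45.2 and 88.1 CPM in labelled high libraries and 286.9, 240.9 and 384.9 CPM in labelled low libraries. Each of the others was at 5.97 CPM or less in every library. Among markers of neutrophils, T and NK cells, B cells, fibroblasts, endothelium, epithelium and erythrocytes, only Cdh1 (listed as epithelial) was called, lower in labelled high libraries. Cdh1 was at means of 10.3 and 33.9 CPM and was the largest of the epithelial list in every library. The other epithelial markers did not follow it: Krt8 and Krt18 were at log2 fold changes of -0.32 and 0.005. Epcam had 0 reads in labelled high and 4 in labelled low libraries, and Krt19 had 2 and 1. Fibroblast markers, mostly Col3a1, summed to 67.2 to 383 CPM in labelled high libraries and to 127 to 559 CPM in labelled low libraries. The highest sum in any library was 42.6 CPM for epithelial, 28.6 for neutrophil, 21.6 for endothelial and 2.78 for B cell markers. For T and NK cell markers it was 1.06 CPM and for erythroid markers 0.71 CPM. Cd3e, Cd3d, Trbc2 and Ly6g had 0 reads throughout. Reads in genes numbered 10202879 to 25473051 a library. Labelled low replicate 3 stood apart: an rRNA copy took 47.3% of its reads in genes, against 3.85% to 13.5% in the other libraries, and 4669283 reads were left outside rRNA and mitochondrial genes, against 11670849 to 17982808. Its CPM also increased most steeply with the GC content of genes, by 0.61 on the log2 scale per 10 percentage points, against -0.54 to 0.06 in the others.

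Oxidative phosphorylation couples the oxidation of nutrients to the synthesis of ATP. Complex I takes electrons from NADH and complex II takes them from succinate, complex III passes them to cytochrome c, complex IV hands them to oxygen, and complex V, the ATP synthase, uses the proton gradient built on the way. Most subunits are encoded in the nucleus and some core subunits of complexes I, III, IV and V in mitochondrial DNA, while complex II is nuclear throughout. In macrophages, reliance on this pathway or on glycolysis is known to vary with the state of activation.

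The coding sequences of 3 members are printed here because the fold changes between the labels tended to fall with the GC content of the longest transcript. A relation to the GC content of coding sequences was not tested. The printed sequences are from the GENCODE M21 transcripts, 5′ to 3′ and without the stop codon, and G and C are in capitals. Cox8a, a small membrane subunit of complex IV on the minus strand of chromosome 19 from 7215153 to 7217616, had the lowest log2 fold change of the 31 in the TMM-scaled test. Ndufa4, on the minus strand of chromosome 6 from 11900292 to 11907497, had the highest. Cox7a2, another small subunit of complex IV on the minus strand of chromosome 9 from 79755361 to 79759878, lies between them in the GC content of its coding sequence and of its longest transcript.
Cox8a: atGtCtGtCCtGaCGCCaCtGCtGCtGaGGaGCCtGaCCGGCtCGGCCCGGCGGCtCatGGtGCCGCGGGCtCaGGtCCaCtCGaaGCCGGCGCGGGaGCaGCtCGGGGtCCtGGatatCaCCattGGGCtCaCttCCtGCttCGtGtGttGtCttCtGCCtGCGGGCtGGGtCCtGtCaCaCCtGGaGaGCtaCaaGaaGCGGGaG
Cox7a2: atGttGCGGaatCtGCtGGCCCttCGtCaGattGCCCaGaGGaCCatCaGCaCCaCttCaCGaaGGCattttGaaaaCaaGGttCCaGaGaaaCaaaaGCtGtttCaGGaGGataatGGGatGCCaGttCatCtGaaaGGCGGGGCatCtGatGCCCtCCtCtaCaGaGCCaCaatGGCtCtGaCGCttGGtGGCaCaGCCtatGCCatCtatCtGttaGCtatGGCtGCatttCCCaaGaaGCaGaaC
Ndufa4: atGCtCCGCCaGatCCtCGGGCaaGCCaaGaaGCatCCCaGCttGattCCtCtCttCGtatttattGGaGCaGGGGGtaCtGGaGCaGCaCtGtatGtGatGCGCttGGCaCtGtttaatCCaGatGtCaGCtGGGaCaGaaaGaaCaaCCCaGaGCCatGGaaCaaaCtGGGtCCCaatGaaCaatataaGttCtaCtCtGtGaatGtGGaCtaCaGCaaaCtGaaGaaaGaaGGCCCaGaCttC
G and C make up 65.2% of the 207 coding bases of Cox8a, 50.6% of the 249 of Cox7a2 and 48.8% of the 246 of Ndufa4. At the third position of the codons the shares are 84.1%, 55.4% and 57.3%. Over the longest transcript, the measure used below, the GC content is 58.6%, 51.9% and 40.3%. None of the 3 genes has exon bases that overlap another gene or shares a run of 50 bases with another annotated transcript.

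Taken over all 31 genes, the level of the pathway was nearly the same under both labels. The summed level was 1947, 2153 and 2064 CPM in labelled high replicates 1, 2 and 3 and 1926, 2056 and 2162 CPM in labelled low replicates 1, 2 and 3. The means were 2055 ± 103 and 2048 ± 118 CPM (SD, n = 3 each), a ratio of 1.003, and the groups overlapped. With reads outside rRNA and mitochondrial genes as the denominator of CPM the means were 3206 and 2937, a ratio of 1.092, with labelled low replicate 3 the lowest at 2595. In bulk samples, fewer cells of a type and less RNA per cell cannot be told apart.

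By edgeR's quasi-likelihood test with Benjamini-Hochberg adjustment over all genes at 0.05, 0 of the 31 genes were called, in a comparison that called 0.446% of all genes tested. The lowest adjusted p of a member was 0.298, for Cox8a. DESeq2 and limma-voom also called 0. At an unadjusted p under 0.05 there were 4 of the 31, namely Cox8a, Ndufa4, Cycs and Ndufb3, and 12.1% of all genes tested stood there. Log2 fold changes, of labelled high over labelled low, were above 0 for 20 genes and below 0 for 11, with a median of 0.19 and a range from -1.01 to 0.70. The median over all genes tested was -0.02. With total counts in place of TMM, which moved the median of all genes to 0.25, 24 lay above 0 and 7 below, and with the offset for GC content described below 22 and 9.

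For 22 of the 31 genes the 95% interval of the fold change lay within a 2-fold change either way, and for 9 it reached past it. The median standard error was 0.24 on the log2 scale, against 0.29 over all genes tested. The fewest reads of any member in a library were 14, for Ndufa5 in labelled low replicate 3.

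**Figure D1:**
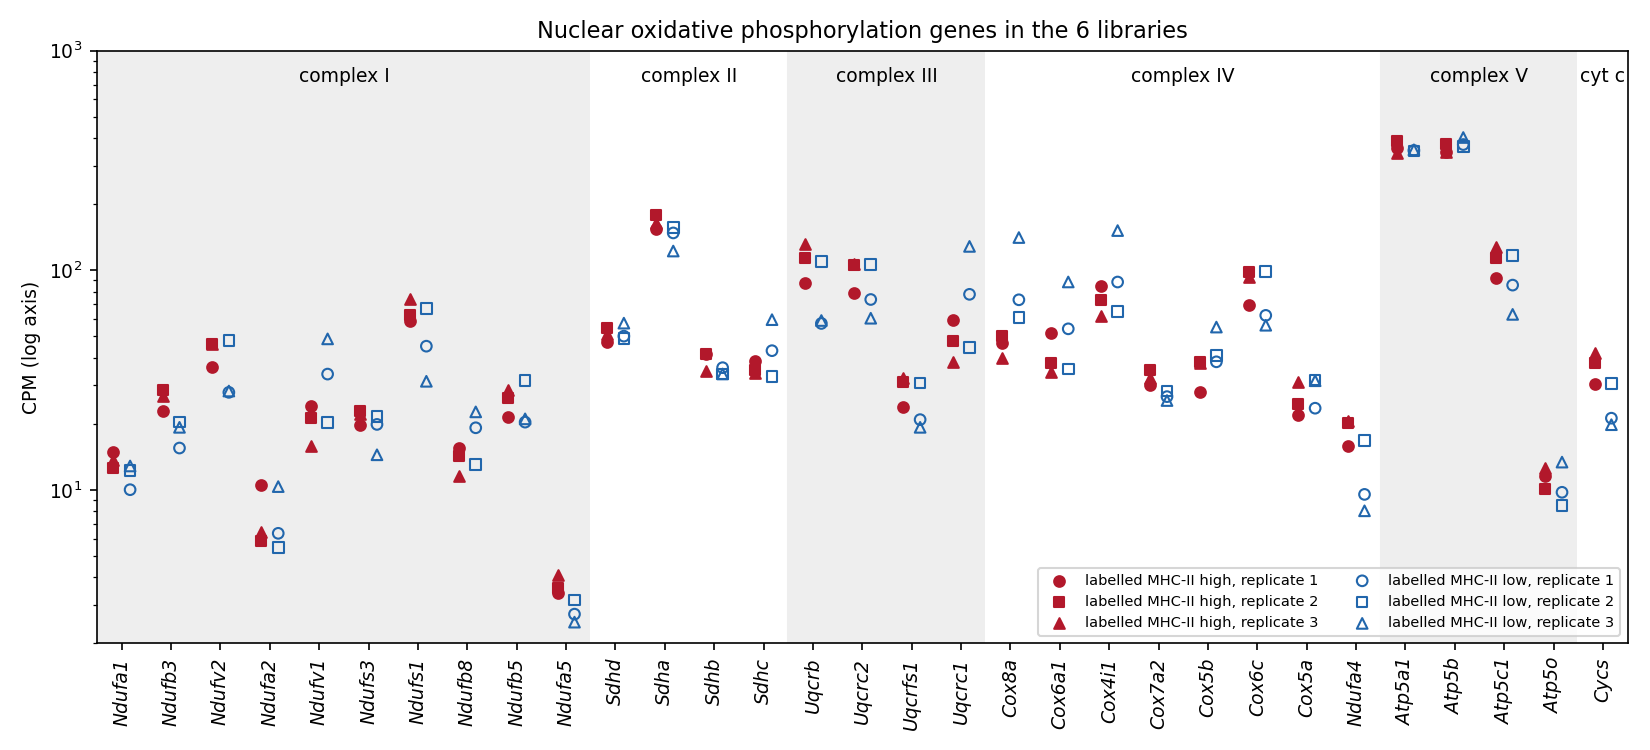
CPM of the 31 genes in each of the 6 libraries, on a log axis, grouped by complex and ordered within it by mean FPKM; filled red symbols are the libraries labelled MHC-II high, open blue symbols those labelled low, and the shape gives the replicate. Atp5a1 and Atp5b have the highest CPM in every library, and labelled low replicate 3 (open triangles) is the highest or lowest library for 22 of the 31 genes.

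Transcripts of complexes III, IV and V led the set. Per length, as FPKM (reads scaled by library size and by the length of the merged exons) averaged over the 6 libraries, the highest were Atp5a1 at 114, Cox8a at 111, Uqcrb at 106, Atp5b at 86.9 and Cox6a1 at 71.7. The lowest were Ndufa5 at 3.13, Ndufb5 at 4.97, Ndufb8 at 5.10 and Atp5o at 5.56 FPKM. Atp5a1 ranged over the libraries from 109 to 124 FPKM, Cox8a from 64.6 to 228 and Uqcrb from 65.4 to 150, so that the order of these 3 does not differ beyond their spread. The lengths matter for this order: by the length of the principal transcript, an alternative added after the data had been seen, Atp5b led at 192 FPKM, before Uqcrb at 174, Atp5a1 at 145 and Cox8a at 125. The lowest by that length were Ndufa5 at 3.695, Cycs at 9.71, Sdhc at 12.8 and Atp5o at 13.1 FPKM, while Ndufb5 and Ndufb8 were at 23.0 and 23.6. Across the 31 genes the Spearman correlation of the 2 sets of levels was 0.862, a description over genes that share libraries and reads.

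Complex I, which oxidises NADH, had 8 of its 10 genes above 0 and 2 below, with a median log2 fold change of 0.22 and 0 called. Ndufb3, an accessory subunit, had the smallest p of the complex. It stood at 22.9, 28.4 and 26.7 CPM in labelled high replicates 1, 2 and 3 and at 15.5, 20.4 and 19.3 CPM in labelled low replicates 1, 2 and 3. Every labelled high library lay above every labelled low library, and the ratio had the same direction in all 3 batches. The log2 fold change, with its standard error (SE), was 0.50 (SE 0.20) with an adjusted p of 0.398. Ndufa1, a small membrane subunit on the X chromosome and the highest of the complex per length at 30.4 FPKM, stood at 14.9, 12.6 and 13.7 CPM in labelled high libraries and 10.0, 12.3 and 12.9 CPM in labelled low libraries. Those groups overlapped, and the log2 fold change was 0.23 (SE 0.21).

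The subunits that bind the cofactors of complex I did not share a direction. Ndufv1, the flavoprotein that binds NADH, stood at 24.0, 21.3 and 15.9 CPM in labelled high libraries and at 33.7, 20.3 and 48.7 CPM in labelled low libraries, for a log2 fold change of -0.74 (SE 0.32) with an adjusted p of 0.42. Without labelled low replicate 3 the value of Ndufv1 was -0.41, and with the GC offset -0.27. Its partner Ndufv2 stood at 42.8 ± 5.80 and 34.6 ± 11.5 CPM (SD, n = 3 each), with a log2 fold change of 0.30. Ndufs1, the largest iron-sulfur subunit, was at 65.2 ± 7.86 and 47.9 ± 18.2 CPM, with a log2 fold change of 0.44. The groups overlapped in all 3 of these genes, and labelled low replicate 3 was the highest library for Ndufv1 and the lowest for Ndufs1. Ndufs3, a further subunit of the matrix arm, was at 21.6 ± 1.73 and 18.7 ± 3.74 CPM. Of the remaining accessory subunits, Ndufa5 lay above in all 3 labelled high libraries, at 3.68 ± 0.355 and 2.79 ± 0.331 CPM, Ndufb8 had a log2 fold change of -0.40, and Ndufa2 and Ndufb5 had 0.07 and 0.06.

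The 4 subunits of complex II, succinate dehydrogenase, which is also an enzyme of the citric acid cycle, had a similar summed level in all 6 libraries, though single genes varied more. Their sum was 281, 309 and 284 CPM in labelled high libraries and 277, 273 and 273 CPM in labelled low libraries, and 0 were called. On this scale the sums did not overlap, with means of 292 and 274 CPM and a ratio of 1.06. They overlapped with reads outside rRNA and mitochondrial genes as the denominator, where labelled low replicate 2 was at 439.9 and labelled high replicate 1 at 433, and as summed FPKM, at 106 to 117 and 103 to 109.8. The median log2 fold change was 0.08, with 2 genes above 0 and 2 below. Sdha, the flavoprotein that oxidises succinate, stood at 153.6, 177.8 and 163.7 CPM in labelled high libraries and at 148.0, 157.1 and 122.4 CPM in labelled low libraries. Its groups overlapped, with a log2 fold change of 0.21 and a 95% interval from -0.19 to 0.61. Sdhb, the iron-sulfur subunit, stood at 41.6, 41.5 and 34.9 CPM and at 36.0, 33.7 and 33.7 CPM, where labelled high replicate 3 fell among the labelled low libraries. For Sdhb the log2 fold change was 0.19.

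The membrane anchors of complex II lay close to 0 or below it. Sdhc stood at 38.7, 35.3 and 34.1 CPM in labelled high libraries and at 43.1, 32.9 and 59.6 CPM in labelled low libraries, with a log2 fold change of -0.32 and an interval from -0.86 to 0.22. Without labelled low replicate 3 the value of Sdhc was -0.08, and without batch 3 it was -0.03. Sdhd, the highest of the complex per length of merged exons at 42.0 FPKM, stood at 47.2, 54.8 and 51.5 CPM and at 50.1, 48.9 and 57.5 CPM. By the length of the principal transcript Sdha was higher, at 53.0 FPKM. The log2 fold change of Sdhd was -0.03 with an interval from -0.41 to 0.36, and its sign changed with the scaling: it was 0.29 with total counts. Sdhc also took the other sign with total counts, at 0.06.

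Complex III, which passes electrons from ubiquinol to cytochrome c, had 3 genes above 0 and 1 below, a median log2 fold change of 0.28 and 0 called. That median was 0.56 without labelled low replicate 2, 0.43 without labelled high replicate 1, 0.14 without labelled low replicate 3 or with the GC offset explained below, and 0.06 without batch 3. In the TMM-scaled test the 5 other complex III genes described below had a median of -0.25, with 1 above 0. Uqcrb, the subunit that binds ubiquinone and the most abundant of the complex, stood at 87.8, 113.2 and 131.3 CPM in labelled high libraries and at 57.3, 109.7 and 59.1 CPM in labelled low libraries. Labelled low replicate 2 lay with the labelled high libraries and replicates 1 and 3 lay below them. Its log2 fold change was 0.55 (SE 0.29) with an adjusted p of 0.451. Of the 50-base runs of Uqcrb transcripts, 25.5% are shared with other annotated transcripts, so its counts are uncertain where reads align to more than 1 place.

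Of the other subunits of complex III, Uqcrc1, a core protein, had a negative value and Uqcrc2 and Uqcrfs1 positive ones. Uqcrc1 stood at 59.7, 47.7 and 38.3 CPM in labelled high libraries and at 77.7, 44.6 and 128.5 CPM in labelled low libraries. The value of labelled low replicate 3 was the highest and that of replicate 2 lay within the labelled high range. The log2 fold change of Uqcrc1 was -0.78 (SE 0.36), and -0.34 without labelled low replicate 3. Uqcrc2, its partner in the core, was at 97.2 ± 15.9 and 80.1 ± 23.6 CPM, with a log2 fold change of 0.28. Uqcrfs1, the Rieske iron-sulfur protein, was at 29.0 ± 4.603 and 23.6 ± 6.19 CPM, with a log2 fold change of 0.29. The GC content of Uqcrc1 is 53.0%, that of Uqcrfs1 48.6%, of Uqcrc2 44.4% and of Uqcrb 40.4%.

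Complex IV, cytochrome c oxidase, had 5 members below 0 and 3 above, with a median log2 fold change of -0.26 and with 0 called. Its summed level was 348, 377.5 and 352 CPM in labelled high libraries and 376, 377 and 557.5 CPM in labelled low libraries. The mean of the labelled low libraries was 437 CPM, and it was 377 CPM without replicate 3, against 359 ± 16.2 CPM in labelled high libraries. With the GC offset, which takes the trend of CPM over GC content out of each library, the median of complex IV was 0.10. Without batch 3 in either label it was 0.02, and with total counts 0.06. In the TMM-scaled test the 4 other complex IV genes described below all lay above 0, with a median of 0.30.

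**Figure D2:**
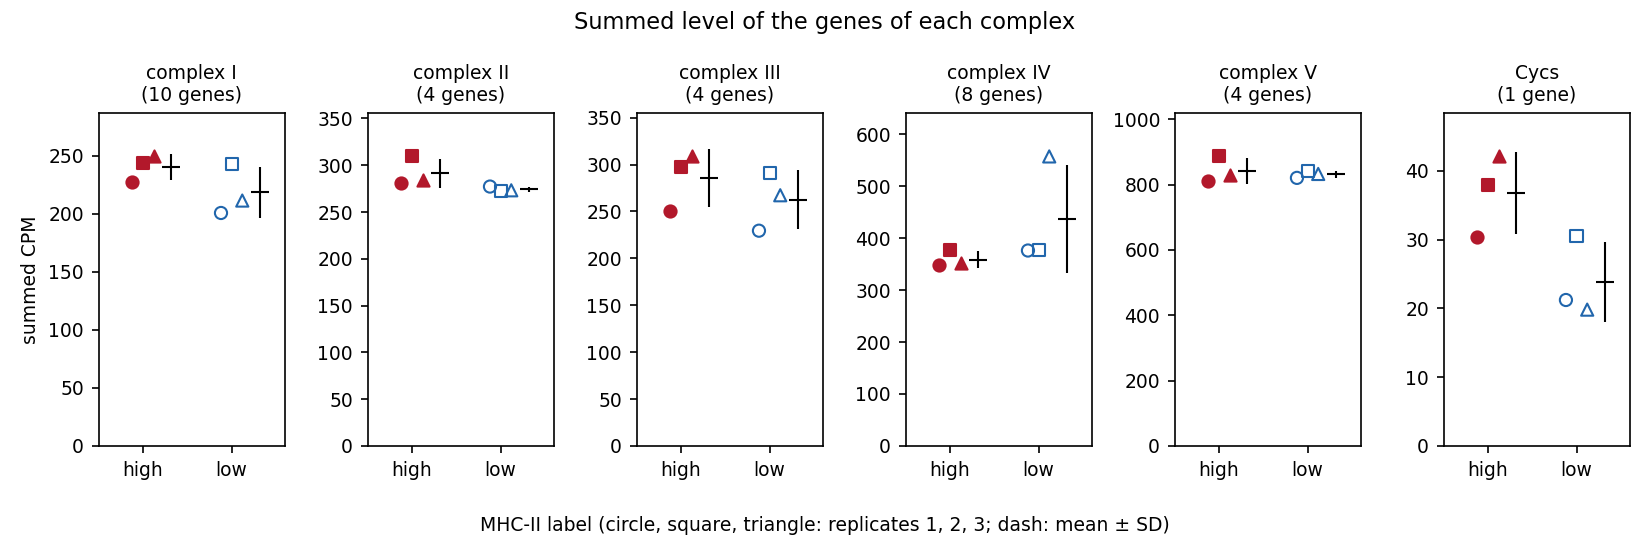
Summed CPM of the genes of each complex, with 1 symbol per library and a black dash with bars for the mean ± SD of 3 libraries; each panel has its own axis from 0. The labels overlap in complexes I, III, IV and V and in Cycs, the labelled high libraries of complex II (281 to 309 CPM) lie above the labelled low ones (273 to 277 CPM) on this scale but not as summed FPKM, and complex IV in labelled low replicate 3 stands at 557.5 CPM against 348 to 377.5 CPM in the other 5 libraries.

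Cox8a had the largest fold change of the 31 with TMM scaling, but not with total counts, where Ndufa4 was at 0.90 and Cox8a at -0.55. Nor was it the largest with the GC offset, where Ndufb8 was at -0.55, Uqcrc1 at -0.50 and Cox5a at -0.49. Cox8a stood at 46.5, 50.03 and 39.97 CPM in labelled high libraries and at 73.4, 60.8 and 141 CPM in labelled low libraries. All labelled high libraries lay below all labelled low libraries, with labelled low replicate 3 far above the rest. The log2 fold change was -1.01 (SE 0.31), with a 95% interval from -1.72 to -0.29 and an adjusted p of 0.298. The ratios within batches 1, 2 and 3 were -0.66, -0.28 and -1.82 on the log2 scale. Without labelled low replicate 3 the log2 fold change was -0.56, with the GC offset -0.43, and with batch as a block beside the offset -0.44 at an adjusted p of 0.0539. With no filter on low counts, which enlarges the set of genes tested to 27192, Cox8a was the 1 member called, at -0.90 and an adjusted p of 0.0265. Its adjusted p over the 17 alternatives ran from 0.0265 to 0.848.

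Other subunits of complex IV differed less between the labels. Cox5b, a peripheral subunit, also lay below in all 3 labelled high libraries, at 34.7 ± 5.82 and 44.8 ± 9.09 CPM, with a log2 fold change of -0.36 and an adjusted p of 0.484. Cox7a2 lay above in all 3, at 29.9, 35.2 and 32.2 CPM in labelled high libraries and 26.6, 28.2 and 25.5 CPM in labelled low libraries. Its log2 fold change was 0.27 (SE 0.17). Cox4i1, at 73.2 ± 11.3 and 102 ± 44.9 CPM, and Cox6a1, at 41.3 ± 9.09 and 59.4 ± 26.9 CPM, had log2 fold changes of -0.47 and -0.52. For both, labelled low replicate 3 was the highest library, at 152 and 88.5 CPM, and with the GC offset the values were 0.07 and 0.14. Cox5a and Cox6c had log2 fold changes of -0.15 and 0.26, with overlapping groups.

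Ndufa4 had the largest positive value of the 31. It stood at 15.9, 20.3 and 20.6 CPM in labelled high libraries and at 9.54, 16.8 and 8.03 CPM in labelled low libraries, where labelled low replicate 2 lay above labelled high replicate 1. This gave a log2 fold change of 0.70 (SE 0.30) with an adjusted p of 0.408, and it was 0.43 with the GC offset. Counted with complex I, as its name says, it leaves complex IV at a median of -0.36.

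Complex V, the ATP synthase, had the highest summed CPM of the complexes and nearly equal values under both labels: 811, 886.5 and 828 CPM in labelled high libraries and 821, 842 and 833 CPM in labelled low libraries. Of its genes 3 lay above 0 and 1 below, with a median log2 fold change of 0.09 and 0 called. Atp5a1, the alpha subunit of the catalytic head, stood at 362, 388 and 341 CPM and at 351.5, 349.9 and 353.9 CPM. Its log2 fold change was 0.05 with an interval from -0.32 to 0.41. Atp5b, the beta subunit, which holds the catalytic sites, was at 356 ± 16.5 and 381 ± 19.0 CPM, with a log2 fold change of -0.10. These 2 genes had the smallest standard errors of the set, 0.16 each.

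The other subunits of complex V were less abundant. Atp5c1, the gamma subunit of the central stalk, stood at 91.9, 114.2 and 128.3 CPM in labelled high libraries and at 85.6, 116.7 and 63.0 CPM in labelled low libraries. Its groups overlapped, at a log2 fold change of 0.33. Atp5o, the stalk subunit that confers sensitivity to oligomycin, was at 11.4 ± 1.22 and 10.6 ± 2.54 CPM. Other genes overlap 47.9% of its exon bases, and 41.6% of its 50-base runs occur in other annotated transcripts, so its counts are uncertain.

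Cycs, the mobile carrier between complexes III and IV and a trigger of apoptosis when released, stood at 30.3, 37.9 and 42.1 CPM in labelled high libraries and at 21.2, 30.5 and 19.8 CPM in labelled low libraries. Labelled low replicate 2 lay just above labelled high replicate 1, and the other 2 labelled low libraries lay below all labelled high libraries. The log2 fold change was 0.62 (SE 0.23) with an adjusted p of 0.384, and 0.31 with the GC offset. Of its 50-base runs 26.1% occur in other annotated transcripts, of 76 genes, so its counts are uncertain too.

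**Figure D3:**
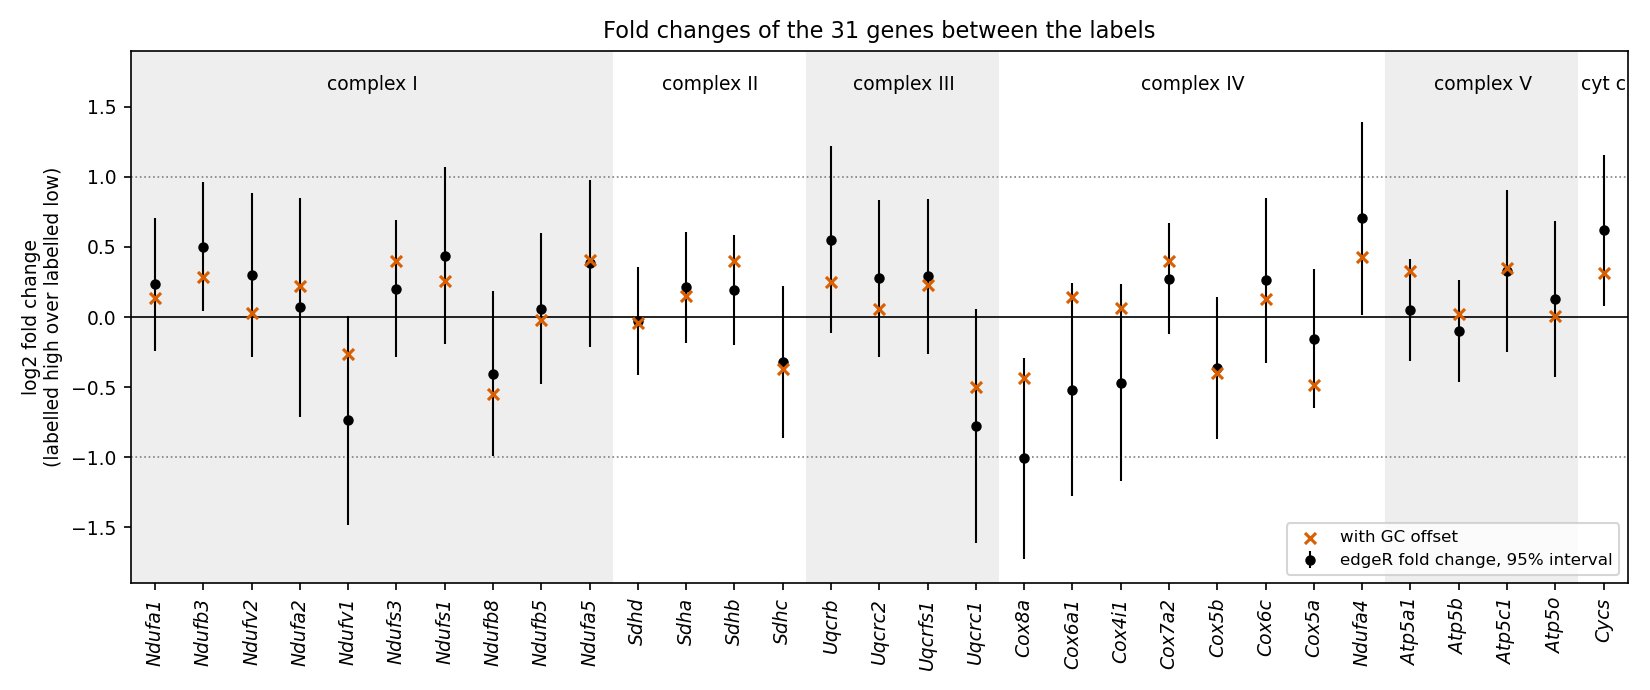
Log2 fold change of each of the 31 genes, labelled high over labelled low, with its 95% interval by edgeR (black) and the value with the GC offset (orange crosses), grouped by complex; dotted lines mark a 2-fold change. Intervals exclude 0 without adjustment for Cox8a, Ndufa4, Cycs and Ndufb3, and the crosses span -0.55 to 0.43 where the black points span -1.01 to 0.70.

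Counted by separation of the libraries, 3 of the 31 genes (Ndufa5, Ndufb3 and Cox7a2) had all labelled high libraries above all labelled low libraries, which was so for 10.5% of all genes tested. For 2 (Cox5b and Cox8a) all lay below, as for 9.48% of all genes tested. Both counts are near these background shares. The direction was the same in all 3 batches for 13 members, and for 40.1% of all genes tested.

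The fold changes followed the GC content of the transcripts. Over the 31 genes, which share libraries and are not independent replicates, the log2 fold change had a Pearson correlation of -0.68 and a Spearman correlation of -0.65 with GC content. Over 14123 genes with a GC value these were -0.48 and -0.58. The 10 members of highest GC content, from 51.8% to 62.7%, had a median log2 fold change of -0.21, and the 10 of lowest, from 40.3% to 46.9%, one of 0.37. With the GC offset both medians were nearly equal, at 0.18 and 0.19, the correlation was -0.09, and the range over members went from 1.71 to 0.98 on the log2 scale. By construction the offset removes a trend over GC content whatever its origin.

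The libraries behind this pattern can be seen per library. Relative to the mean of the labelled high libraries, the 10 members of highest GC content had median log2 levels of 0.14, 0.07 and -0.21 in labelled high replicates 1, 2 and 3 and of 0.11, -0.15 and 0.75 in labelled low replicates 1, 2 and 3. For the 10 of lowest GC content these were -0.25, 0.07 and 0.13 and then -0.58, 0.02 and -0.66. Labelled low replicates 1 and 3 were thus far apart between the 2 sets, and labelled low replicate 2 lay near the labelled high libraries. Replicate 3 was the highest or lowest of the 6 libraries for 71.0% of the members, and for 74.0% of all genes tested. Without replicate 3 the Pearson correlation was -0.59 over members, and -0.21 over the 14123 genes with a GC value, against -0.48 with it. Over members and other nuclear genes of the complexes, 81 in all, it was -0.39 without replicate 3 and -0.60 with it. The rRNA share was highest in these same libraries, 47.3% in replicate 3 and 13.5% in replicate 1, and its part in the result was not tested.

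**Figure D4:**
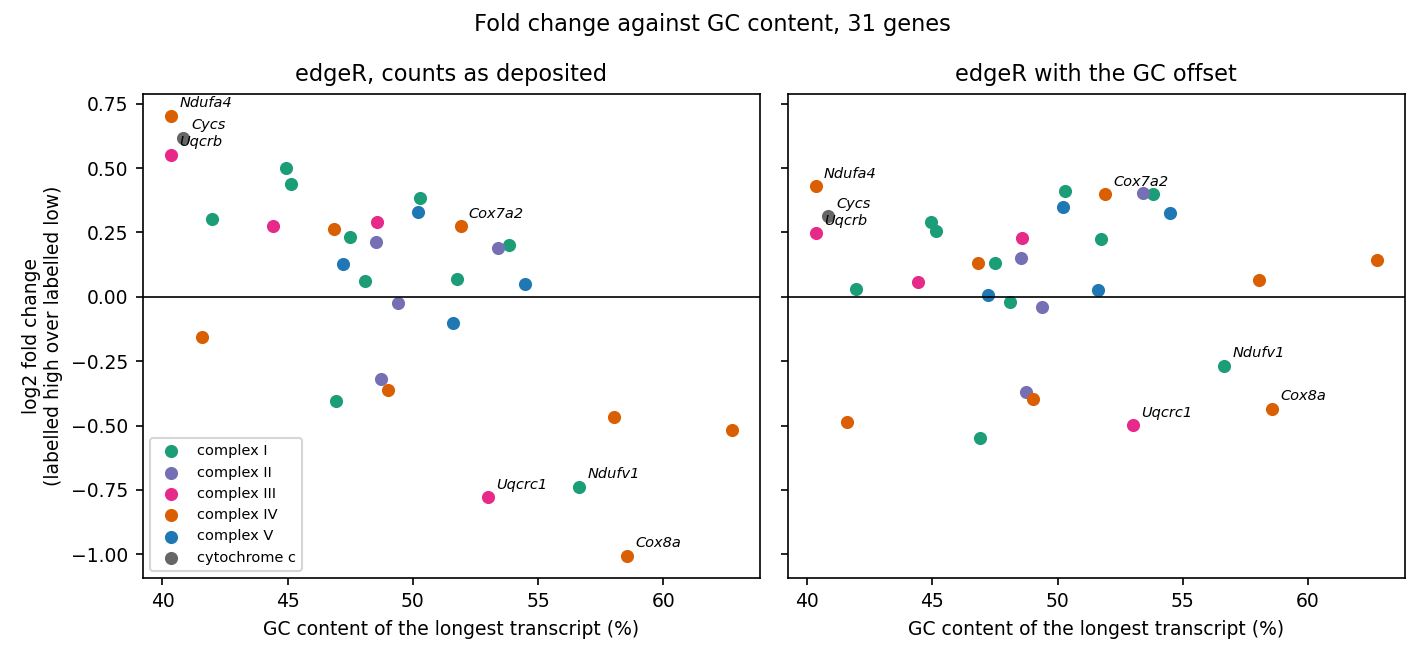
Log2 fold change between the labels against the GC content of the longest transcript in percent for the 31 genes, coloured by complex, from the counts as deposited (left) and with the GC offset (right). On the left Ndufa4, Cycs and Uqcrb lie at the top left and Cox8a at the bottom right, with a Pearson correlation of -0.68; on the right it is -0.09.

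Calls among the members depended on which libraries were compared. With the batch as a block, 0 of 31 were called, against 0.29% of all genes tested. With the GC offset 0 were called, against 2.52%, and with the offset and the block 0, against 3.72%. At an unadjusted p under 0.05 these 3 settings gave 3, 5 and 9 members, and 8.91%, 16.5% and 19.4% of all genes tested. Of the 6 libraries, only labelled low replicate 2 changed the count of members called when left out. Without it, 6 of the 31 (19.4%) were called by edgeR, against 7.16% of all genes tested: Ndufa4, Uqcrb and Cycs were higher in labelled high libraries, at log2 fold changes of 1.12, 0.96 and 0.87, and Cox8a, Uqcrc1 and Ndufv1 were lower, at -1.19, -1.05 and -0.97. Their adjusted p values lay between 0.0346 and 0.0473. For the 5 genes other than Cox8a they lay between 0.129 and 1 in the other alternatives. The 3 higher genes have a GC content of 40.3% to 40.8% and the 3 lower genes one of 53.0% to 58.6%, and in this setting the remaining labelled low libraries are those of the highest rRNA share.

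Among the other genes of the pathway calls were as rare. Of 50 further nuclear genes listed with the complexes, all tested, 0 were called by edgeR, DESeq2 or limma-voom. Their log2 fold changes were above 0 for 29 and below for 21, with a median of 0.14 and 4 at an unadjusted p under 0.05. Ndufb1-ps among them is annotated as a noncoding RNA. By complex the medians were 0.02 in I, -0.25 in III, 0.30 in IV and 0.23 in V. In III and IV the sign was opposite to that of the members with all 6 libraries. Without labelled low replicate 3 the medians in III were 0.165 for these genes and 0.14 for the members, and in IV 0.26 and -0.08. With the GC offset the medians of these genes in I, III, IV and V were 0.25, 0.07, 0.19 and 0.10. Those of the members in III and IV were then 0.14 and 0.10, of the same sign. In complex I, Ndufc1, an accessory subunit, was at 7.60 ± 1.87 and 4.46 ± 0.900 CPM (log2 fold change 0.76, adjusted p 0.384), and Ndufa3, another, at 20.1 ± 0.545 and 28.7 ± 6.95 CPM. Cyc1, the cytochrome c1 of complex III, was at 24.2 ± 3.26 and 40.1 ± 19.4 CPM, with a log2 fold change of -0.72 and of -0.05 with the GC offset. Cox7c and Cox7b of complex IV were at log2 fold changes of 0.62 and 0.54. Atp5d, the delta subunit of complex V, was at -0.89, and at -0.22 with the GC offset. Atp5k, a membrane subunit of complex V named after its values were seen, was called with the GC offset, at 0.86 and an adjusted p of 0.0436, and at 0.0449 with the block added. In the counts as deposited it was at 11.1 ± 2.45 and 8.15 ± 2.64 CPM (adjusted p 0.491).

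Isoforms of other tissues were near the floor. Of 9 such genes 2 could be tested: Cox7a1, the heart and muscle form of the complex IV subunit, at 1.18 ± 0.0883 and 1.19 ± 1.19 CPM, and Ndufa4l2, a paralog of Ndufa4, at 0.932 ± 0.354 and 1.17 ± 0.852 CPM. The testis cytochrome c gene Cyct, Cox7b2 and Cox8c had 0 reads in all 6 libraries, and Cox8b, the muscle form of Cox8a, had 1 read. Cox4i2 had 25 reads in all in labelled high libraries and 32 in labelled low libraries, where its paralog Cox4i1 had 850 to 1737 in each library.

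Genes that build or regulate the complexes also passed no test. Among 47 tested assembly factors 0 were called, with a median log2 fold change of 0.17, 32 above 0, 15 below and 4 at an unadjusted p under 0.05. Sdhaf4, an assembly factor of complex II, was at 2.38 ± 0.572 and 1.19 ± 0.416 CPM, and Sco2, which delivers copper to complex IV, at 1.67 ± 0.0643 and 3.03 ± 0.673 CPM (adjusted p values of 0.404 and 0.382). Among 14 tested regulators 0 were called, with a median of -0.02 and 0 at an unadjusted p under 0.05. Pprc1, a coactivator of mitochondrial genes, was at 27.5 ± 6.76 and 51.8 ± 31.4 CPM, and Gabpa, which binds ETS motifs, at 90.6 ± 8.44 and 67.5 ± 19.2 CPM. Ppargc1a, a coactivator of mitochondrial biogenesis best known from muscle and brown fat, had 4 reads in all in labelled high libraries and 2 in labelled low libraries.

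Among 17 general mitochondrial genes 0 were called, with a median log2 fold change of 0.19 and 1 at an unadjusted p under 0.05. Vdac2, a channel of the outer membrane, was at 262 ± 30.5 and 197 ± 25.3 CPM, and Slc25a4, the exchanger of ADP and ATP, at 71.9 ± 5.59 and 55.8 ± 4.88 CPM, both at 0.42 as adjusted p. Ucp2, an inner membrane carrier common in macrophages, stood at 442, 343 and 295 CPM in labelled high libraries and at 705, 385 and 1444 CPM in labelled low libraries. Its log2 fold change was -1.23 (SE 0.43) with an adjusted p of 0.367, and labelled low replicate 2 lay within the labelled high range.

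The subunits encoded in mitochondrial DNA stood beside the nuclear ones in a ratio that did not part the labels. Their summed CPM was 7.90, 10.7 and 11.7 times that of the 31 genes in labelled high replicates 1, 2 and 3 and 9.13, 11.3 and 9.12 times in labelled low replicates 1, 2 and 3. Of 12 tested mitochondrial mRNAs 0 were called, with 0 at an unadjusted p under 0.05 and a median log2 fold change of 0.01, which was -0.39 with the GC offset. The largest were mt-Co1, at means of 10014 and 8784 CPM, and mt-Nd1, at 3772 and 3691 CPM. mt-Co2, mt-Co3 and mt-Atp6 were at 14.3 CPM or less in both label means, so the sum does not weigh the mitochondrial mRNAs evenly, and the cause of their low counts was not tested.

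The promoters of the members were searched for 3 motif cores of factors known to control respiratory genes, on both strands, in windows of 300 bases from 250 before to 50 after a gene's start. The windows came from RefSeq on GRCm38.p6, where 23 of the 31 genes had an entry. CGCATGCG, a core bound by NRF1, was found in 3 of 23 (13.0%), in Uqcrc1, Cox6a1 and Cycs, and in 2.07% of all genes in the table. CCGGAAG, an ETS core, was found in 5 (21.7%), in Ndufs3, Sdhb, Sdhd, Cox6a1 and Cox8a, and in 9.93% of all genes. AAGATGGCG, a YY1 core, was found in 0 of 23 and in 1.64% of all genes. At least 1 core was found in 7 members (30.4%), in 12.8% of all genes and in 27.1% of the genes tested here. Among the genes tested, the shares were 4.41% for the NRF1 core, 21.1% for the ETS core and 3.74% for the YY1 core. Of 45 other nuclear genes of the complexes, 15.6% held the NRF1 core, 26.7% the ETS core and 15.6% the YY1 core. At least 1 core was found in 46.7% of these 45. The 7 members with a core were at log2 fold changes on both sides of 0, from Cox8a at -1.01 to Cycs at 0.62.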

How the data were processed

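Each library has 1 deposited table of raw counts, listing Ensembl genes and 5 summary lines of reads in no gene that stayed out of library sizes and tests; reads assigned to no feature were 35.2% to 49.4% of the listed reads. The authors used FastQC, Trimmomatic, STAR, HTSeq and DESeq2 on GRCm38, per the submitters' processing notes, which give no versions; the strand setting of the counting is not given in the sources used here, so reads of overlapping genes on opposite strands cannot be told apart. GENCODE M21 matched 55227 of 55487 identifiers.

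All genes were fitted together by edgeR 4.0.16 under R 4.3.3 (TMM factors, filterByExpr, quasi-likelihood test, labelled high against labelled low), and genes at an adjusted p under 0.05 were called. Standard errors are fold changes over the square root of F. FPKM were computed from the lengths of merged exons. The GC offset removed each library's trend of log2 CPM over GC content with loess at span 0.4. The alternatives tried were DESeq2 1.42.0, voom of limma 3.58.1, total counts, RLE size factors, filters on low counts (none, or 1 CPM in 3 libraries), removal of rRNA and mitochondrial genes, the GC offset, the batch block, both together, and leaving out each library or batch 3. The script was tested on simulated data.

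The labels give the batch that pairs the libraries. Deviations of same-numbered libraries from their label means correlated at 0.16, 0.33 and -0.12. For differently numbered libraries they ran from -0.49 (labelled high replicate 1, labelled low replicate 2) to 0.35 (labelled high replicate 1, labelled low replicate 3). Same-numbered libraries thus did not stand apart by this measure, which is taken over all genes tested and does not exclude genes that follow the batch. Col3a1 was at 307.5, 293.4 and 52.5 CPM in labelled high replicates 1, 2 and 3 and at 397.7, 457.4 and 108.1 CPM in labelled low ones. Of the fibroblast markers, Col3a1, Pdgfra and Dcn were lowest in replicate 3 under both labels, and Col1a1, Col1a2 and Pdgfrb only under the high label. The 31 genes and the other lists were chosen with earlier results of these data known. Values in every library are given for the member of highest FPKM and of smallest p in each complex, all of complex II and Cycs. From other lists up to 4 genes of smallest p could be named; Ndufv1, Ndufa4, Cox7a2, Cox8b, Cox4i2, Cox4i1, Ppargc1a, mt-Co1, mt-Nd1, mt-Co2, mt-Atp6 and others beyond that were named after their values were seen.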

Additional observations from a re-analysis of the deposited data

How the results depend on the processing

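Of the 31 genes 0 were called in all alternatives but 2: 1 with no filter on low counts, and 0 to 6 when single libraries were left out. Of the 50 other nuclear genes listed with the complexes 1 was called under the GC offset, 1 when the block was added to it, and 0 to 4 when single libraries were left out. The batch block on its own, which pairs the libraries, changed no call among the 31; over all genes it gave 1 higher and 40 lower, against 13 and 50 without it, and the GC offset with the block gave 159 and 367. Higher and lower genes numbered 108 and 266 by DESeq2, 113 and 436 with no filter, 117 and 239 with the GC offset, and 0 and 28 without batch 3. With total counts 8 were higher. Leaving out single libraries gave 0 to 246 higher and 8 to 784 lower, the most without labelled low replicate 2. Median log2 fold changes with total counts were 0.49 in complex I, 0.37 in II, 0.50 in III, 0.061 in IV, 0.41 in V and 0.46 over all 31, beside 0.25 for all genes. In complex IV the median was 0.10 with the GC offset, 0.10 with the block added and 0.021 without batch 3, and in complex V it was 0.17 with no filter, 0.18 with the offset and 0.19 with the block added. Over all 31 it was 0.06 without batch 3. Leaving out single libraries gave 0.16 to 0.34 in complex I, 0.14 to 0.56 in III, -0.35 to -0.08 in IV and 0.11 to 0.31 over all 31. Sdhd, at -0.03, changed sign with total counts (0.29), DESeq2 (0.005), no filter (0.050), without batch 3 (0.045) and without either labelled high replicate 1 or replicate 3 of the low label (0.051 and 0.045, the range over single libraries left out being -0.055 to 0.051), and Sdhc with total counts (0.064). The ratio of summed CPM was 1.092 with reads outside rRNA and mitochondrial genes as the denominator, and 27.1% of tested genes' promoters held a motif core. The cause of these changes was not tested. Labelled low replicate 3 had the fewest reads.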
